A study of Arabidopsis thaliana with 30 samples.

Results

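A set of 366 genes of 32548 nuclear gene identifiers had almost no counts in wild-type leaves and counts in all 3 sal1 libraries of Arabidopsis thaliana. They were chosen by 3 conditions on the deposited counts: at most 5 counts summed over the 3 wild-type libraries of the sal1 set, at least 20 counts in each of the 3 sal1 libraries, and fewer than 20 counts in each of the 6 hda6 libraries. Because these counts chose the genes, the difference between sal1 and its wild type is given for them as a description and is not tested. Of 9925 genes that met the wild-type limit, and are called silent here, the 366 were 3.69%. Without the limit on hda6 there would be 395.

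The libraries came from leaves of Col-0 plants at bolting, grown at 22 °C by day and 20 °C by night with no heat treatment, in days of 12 or 16 h. The 30 libraries form 10 groups of 3 full-sib samples, in 4 sets that each have a wild type of their own: wild type, cue1 and hda6 at 12 h, wild type and sal1 at 12 h, wild type, cue1 and msh1 at 16 h, and wild type and hda6 at 16 h. No source used here gives the mutant alleles, and the groups share the Col-0 background and carry no other allele in the labels. Gene counts totalled 15632452 to 19976573 in the wild-type libraries of the sal1 set and 20139302 to 21241223 in the sal1 libraries, so a limit on raw counts was slightly easier to pass in sal1. With counts scaled to equal library size, 331 genes met the rule.

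SAL1 is a phosphatase that breaks down 3′-phosphoadenosine 5′-phosphate (PAP), a by-product of sulfate-transfer reactions. PAP inhibits the 5′ to 3′ exoribonucleases, of which XRN2 and XRN3 act in the nucleus and XRN4 in the cytoplasm. Nuclear enzymes of this class degrade the RNA that RNA polymerase II goes on making after a transcript has been cleaved at its 3′ end, and this is known to help the polymerase leave the template. When this step is slow, transcription can run on from one gene into the next, which is why the genes next to the 366 were examined. CUE1 is a plastid phosphate translocator, HDA6 a histone deacetylase and MSH1 a protein of organelle genome stability.

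Most of the 366 genes lay beside a gene that was expressed in wild-type leaves and whose transcription pointed at them. An expressed neighbour here has at least 5 CPM (gene counts scaled to a library total of 1000000) on average in the wild type of the sal1 set. It faces the gene when it is the adjacent gene upstream on the same strand (tandem) or downstream on the opposite strand (convergent), with at most 2000 bases between the annotated genes. By this measure, 309 of the 366 genes (84.4%) faced an expressed neighbour, against 2265 of the 9559 other silent genes (23.7%) and 39.4% of all nuclear genes. Tandem neighbours accounted for 220 genes (60.1%, against 11.4% of the other silent genes) and convergent ones for 142 (38.8% against 14.1%), with 53 genes counted in both. A further 9 genes only overlapped an expressed gene in another arrangement, and 48 had neither. Among protein-coding genes with at least 500 exonic bases, the shares were 249 of 290 (85.9%) and 1122 of 4629 (24.2%).

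The sequence between neighbour and gene is shown for those of the 12 highest genes with a tandem neighbour that is expressed in wild type and 10 to 300 bases away, from the neighbour's annotated end to the gene's annotated start, on the strand of both genes, from the RefSeq TAIR10.1 genome. Their shortness follows from this choice, and they are shown for the letters between the 2 genes. Capitals mark TATAAA, the core of the TATA box found before many plant gene starts, and AATAAA, the canonical polyadenylation hexamer, searched on this strand only.
AT3G21660 after AT3G21670, chr3:7626655-7626756, minus strand: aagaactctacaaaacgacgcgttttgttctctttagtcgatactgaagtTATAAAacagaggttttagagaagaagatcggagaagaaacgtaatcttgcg
BGAL14 after FP6, chr4:18035923-18036055, plus strand: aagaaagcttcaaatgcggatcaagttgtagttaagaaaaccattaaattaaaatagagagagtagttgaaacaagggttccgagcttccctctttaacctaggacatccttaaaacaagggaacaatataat
AT5G16900 after AT5G16890, chr5:5554920-5555056, plus strand: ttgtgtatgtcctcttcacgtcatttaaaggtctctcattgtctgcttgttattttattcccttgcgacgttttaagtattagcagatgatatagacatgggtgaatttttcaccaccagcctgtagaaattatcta
SFH12 after LCB1, chr4:17221626-17221884, plus strand: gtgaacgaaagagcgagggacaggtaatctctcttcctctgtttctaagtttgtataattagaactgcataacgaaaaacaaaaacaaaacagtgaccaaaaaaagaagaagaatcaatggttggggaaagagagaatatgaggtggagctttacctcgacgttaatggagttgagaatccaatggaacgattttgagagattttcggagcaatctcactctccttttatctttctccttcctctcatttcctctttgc
AT1G48640 after PEX3, chr1:17986293-17986302, plus strand: catccgtaat
AT1G48405 after AGO1, chr1:17885615-17885632, minus strand: aagcaatcgacagaatcc
AT2G20970 after pEARLI4, chr2:9009795-9009866, plus strand: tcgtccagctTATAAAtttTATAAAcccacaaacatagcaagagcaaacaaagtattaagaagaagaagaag
Of these 7 stretches, 2 hold TATAAA and none holds AATAAA. Among the tandem gaps of 50 to 300 bases, TATAAA was found in 23 of 111 before the 366 genes (20.7%), in 24.4% of 675 before other silent genes and in 19.5% of 3542 before all genes. AATAAA was found in 16 of the 111 (14.4%), in 19.9% and in 24.4%, respectively. The gaps before the 366 genes had a median A and T content of 65.1%, against 69.2% before other silent genes and 67.5% over all. The 2 hexamers can overlap, and a match is a description of the letters only. The search began after the neighbour's annotated end, so a hexamer within the neighbour was not looked for. A missing match therefore says nothing about the neighbour's own end signal.

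The 366 genes were near 0 outside sal1. Summed over the set, the 3 wild-type libraries of the sal1 set held 187, 156 and 202 counts and the sal1 libraries 32363, 34363 and 35010. On the CPM scale the sums were 12, 9.54 and 10.1 in wild type and 1530.2, 1706 and 1648 in sal1. In the other libraries the sum ran from 237 to 764 counts. The hda6 libraries at 12 h held 764, 632 and 608 counts, against 327, 309 and 329 in their wild type. The hda6 libraries at 16 h held 500, 485 and 423, against 335, 265 and 321 in theirs. The msh1 libraries held 561, 670 and 635 counts, likewise above each of their wild-type libraries (288, 265 and 354). Most of the 366 genes had at most 5 counts over the 3 libraries in msh1 (306 genes) as in that wild type (309). The rule did not use the cue1, msh1 or other wild-type libraries, in which no gene but 5 in msh1 had 20 counts in all 3 libraries. These 5 go against counts in sal1 alone, and the limit on hda6 was set by the rule.

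**Figure D1:**
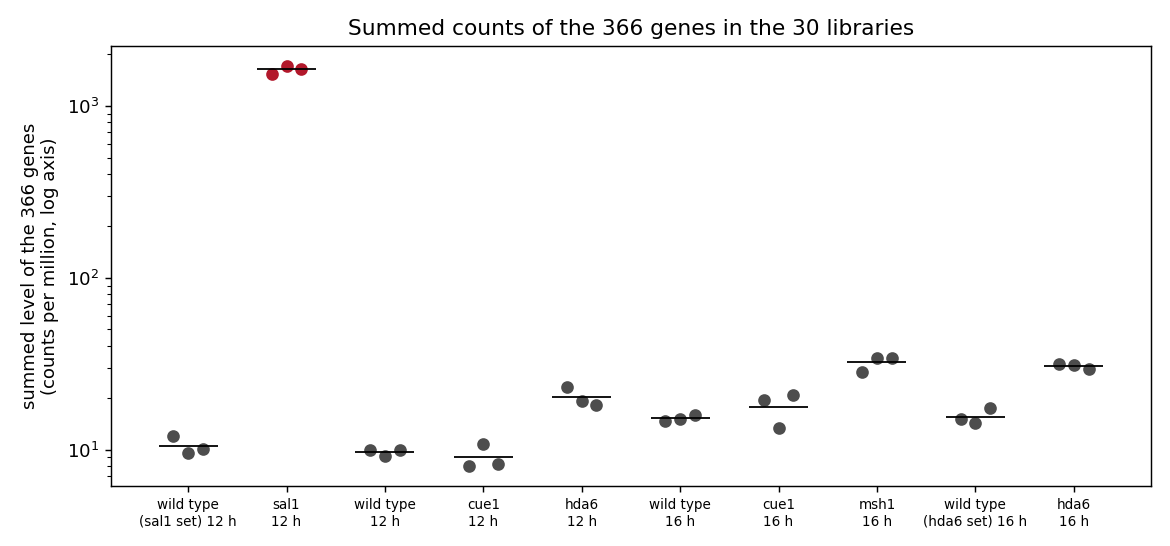
Summed level of the 366 genes in each of the 30 libraries, in CPM on a log axis. Points are libraries and horizontal lines are group means, and the 3 sal1 points, which the rule placed, lie at 1530.2 to 1706 CPM while the other 27 lie below 35.

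Within the set the levels were low and even between replicates. The mean level in sal1 ran from 1.04 to 58.5 CPM with a median of 2.69 CPM, or per kilobase of exon from 0.352 to 38.7 with a median of 3.24. The coefficient of variation over the 3 sal1 libraries had a median of 17.6% and exceeded 50% in 11 genes. No count was seen in any of the 3 wild-type libraries for 161 genes. By type, 330 genes were protein-coding and 33 were long non-coding RNAs, with 1 other non-coding RNA, 1 tRNA and 1 snoRNA. Their median exonic length was 1020.0 bases, against 520.0 for the other silent genes. At the edge of the rule, 13 genes had a lowest sal1 count of exactly 20 and 17 genes missed with 19. BAN, the anthocyanidin reductase of the seed coat, was just inside with 20, 32 and 20 counts, and TPK4, a potassium channel, just outside with 19, 56 and 45. AT1G23250 (31, 34 and 20 counts) and AT1G62170 (42, 20 and 38) were also just inside, and AT1G03395 (19, 21 and 21) and AT1G15320 (19, 31 and 21) just outside.

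The genes with a tandem expressed neighbour included 8 of the 12 highest of the set, though not the highest. AT3G21660, a UBX domain protein, had 1, 2 and 0 counts in wild type and 825, 1412 and 1173 in sal1. It starts 102 bases after AT3G21670, a transporter of the major facilitator family, measured at 25.5, 28.1 and 26.5 CPM in wild type and at 25.8, 42.5 and 33.8 CPM in sal1 (log2 difference 0.29, edgeR adjusted p = 0.218). The rule itself set the 2 groups apart for AT3G21660, so nothing is read from that. Its neighbour did not pass the test, and per kilobase the gene stood at 251% of its neighbour in sal1. SFH12, a Sec14-like lipid transfer protein, had 0, 1 and 0 counts in wild type and 497, 522 and 488 in sal1. It lies 259 bases after LCB1, a subunit of serine palmitoyltransferase, at 32 ± 3.6 CPM in wild type against 30.2 ± 3.28 in sal1 (SD, n = 3 each). SFH12 reached 99% of the level of LCB1 per kilobase in sal1, with no call on LCB1 (edgeR adjusted p = 0.273).

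BGAL14, a beta-galactosidase, was at 1, 0 and 0 counts in wild type and at 693, 448 and 635 in sal1. It begins 133 bases after FP6, a farnesylated protein, and its end overlaps KAK, a ubiquitin ligase known from trichome branching, on the opposite strand. FP6 (log2 difference 0.21) and KAK (-0.15) did not pass the test. AT5G16900, a leucine-rich repeat kinase, had 0, 2 and 0 counts in wild type and 526, 482 and 518 in sal1, and here the tandem neighbour AT5G16890 rose as well, from 12.2 ± 0.819 to 22 ± 0.48 CPM (SD, n = 3 each; log2 difference 0.79, edgeR adjusted p = 0.000596). The level of this neighbour was thus higher in sal1, by a far smaller factor than the counts of AT5G16900.

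AT1G48640, an amino acid transporter family member that starts 10 bases after PEX3, a peroxisome membrane assembly factor, had 0, 2 and 1 counts in wild type and 345, 364 and 348 in sal1. PEX3 was at 23.2 ± 2.3 and 22.3 ± 1.58 CPM (SD, n = 3 each), which is within the spread of its replicates. The end of AT1G48640 also overlaps AT1G48650, an RNA helicase gene on the opposite strand, which fell from 84.8 ± 8.07 to 66.7 ± 9.04 CPM (SD, n = 3 each; log2 difference -0.41, edgeR adjusted p = 0.0134). That call is lost without sal1 replicate 3 (edgeR adjusted p = 0.0511). AT1G48405, 18 bases after AGO1, the main Argonaute protein of microRNA action, had no counts in wild type and 304, 295 and 399 in sal1, at least 276-fold higher against a floor of 3 counts over the 3 wild-type libraries. AGO1 rose from 211 to 324 CPM (log2 difference 0.55, edgeR adjusted p = 0.002). AT5G35640 had no counts in wild type and 403, 339 and 259 in sal1, and lies 1090 bases after GS2, the plastid glutamine synthetase, which fell from 969.7 to 704 CPM (log2 difference -0.53, edgeR adjusted p = 0.024). That call on GS2 is lost when any of 4 libraries is left out, wild type 1 or 2 or sal1 2 or 3, with adjusted p-values of 0.0667, 0.0653, 0.0763 and 0.0751.

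APX2, a cytosolic ascorbate peroxidase known as a high-light response gene that sal1 plants express, had 2, 0 and 0 counts in wild type and 299, 262 and 251 in sal1. It lies 407 bases after AT3G09630, a ribosomal protein gene, which fell from 334 ± 32.4 to 227 ± 18.2 CPM (SD, n = 3 each; log2 difference -0.61, edgeR adjusted p = 0.0021). C2, a calcium-dependent lipid-binding protein, had no wild-type counts and 262, 259 and 255 in sal1, and overlaps the end of TOC64-III, a chloroplast import receptor, which fell from 51.4 to 34.2 CPM (log2 difference -0.65, edgeR adjusted p = 0.000729). In both pairs the gene gained counts while its neighbour had fewer.

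AT2G20970, a lipid-binding protein 72 bases after pEARLI4, had no counts in wild type and 326, 285 and 351 in sal1. Its neighbour went from 84.7 ± 5.11 CPM in wild type to 75.9 ± 1 in sal1 (SD, n = 3 each; log2 difference -0.22, edgeR adjusted p = 0.0443), a call that is lost under DESeq2 (adjusted p = 0.054), with no low-count filter and without any single library. Further genes with a tandem neighbour carry known roles. RR18, a type-B response regulator of cytokinin signalling, had 212, 212 and 250 counts in sal1 against 3, 2 and 0 in wild type, 1051 bases after AT5G58090. FUT2, a xyloglucan fucosyltransferase, had 184, 186 and 251 counts against 1, 0 and 2, only 12 bases after its paralog FT1, and PERK5, a receptor-like kinase, had 212, 183 and 211 counts against 0, 2 and 0, 205 bases after CHB3. ATSAC1B, a phosphoinositide phosphatase, had 215, 236 and 210 counts against 1, 1 and 0, between ATGRIP 167 bases upstream and AT5G66010 142 bases downstream on the opposite strand. NAC063, a NAC transcription factor, had 216, 233 and 312 counts against 0, 1 and 0 between SAP130a and SAP130b. The level of NAC063 relative to those neighbours cannot be read, because 90.5% of the exonic bases of SAP130a lie in stretches of 50 bases or more that SAP130b also holds and counts of such copies are uncertain.

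Several members, chosen after their values were seen, are known from organs other than the leaf. CASP2, a Casparian strip protein of the root endodermis, had 0, 1 and 0 counts in wild type and 100, 83 and 64 in sal1, 77 bases after SPY. TDF1, a tapetum transcription factor, had no wild-type counts and 92, 104 and 151 in sal1, 261 bases after AT3G28480. AGL61, a MADS-box factor of the central cell, had 90, 160 and 95 counts against 0 and converges on TAT3, a tyrosine aminotransferase, at 58 bases. WRKY34, a pollen WRKY factor, had 184, 160 and 165 counts against 1, 0 and 1 and overlaps CSN6B, a subunit of the COP9 signalosome, end to end. Of all tested genes, 25.0% were called higher in sal1 and 21.3% lower, beside which the counts of called markers stand. The 6 seed markers summed to at most 1.24 CPM in any library, with SESA2, SESA3 and CRA1 at 0 throughout, the 3 root hair markers to at most 0.245 CPM, and the pollen marker VGD1 was at 0. Of 5 pollen and tapetum markers, 2 had enough counts to be tested, and both, AGP6 (log2 difference 1.01) and AMS (1.41), were higher in sal1. The 5 summed to 1.66 to 1.96 CPM in wild type and to 4.05 to 4.68 in sal1. AMS, at 0.384, 0.857 and 0.801 CPM in wild type, needed sal1 counts to pass the low-count filter, so its call is no support. Of 7 flower markers, 2 were tested, of which PI was called higher (1 count in all over the wild type, 64 over sal1) and AG was not called. PI had enough counts only through sal1, where it was high, so its call is no support. The part of other organs in the members' counts was not tested. The 3 secondary-wall markers of the stem summed to 61.3 to 92.6 CPM in wild type and 51.6 to 63.6 in sal1, and CESA8, a cellulose synthase subunit, was called lower (log2 difference -0.58, edgeR adjusted p = 0.0468). Among the leaf markers, 4 of 5 were lower in sal1, with RBCS1A, a Rubisco small subunit, at 7439 CPM in wild type and 3229 in sal1. In whole leaves, fewer cells of a type and less RNA per cell cannot be told apart.

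Genes that converge with an expressed neighbour form the other large class. AT2G30630 had 2, 1 and 2 counts in wild type and 338, 368 and 351 in sal1, and its end overlaps AT2G30620, at 146 ± 3.93 CPM in wild type against 123 ± 5.15 in sal1 (SD, n = 3 each). AT2G30620 was called lower (log2 difference -0.31, edgeR adjusted p = 0.0176), a call that is lost without wild-type replicate 1 or 2 or sal1 replicate 3. AT2G14755 had no wild-type counts and 290, 312 and 361 in sal1, 696 bases from the end of APK, an adenylylsulfate kinase that makes the sulfate donor from which PAP arises. APK rose from 108 to 341 CPM (log2 difference 1.6, edgeR adjusted p = 0.000429). AT1G32880 had 1, 3 and 0 counts in wild type and 233, 373 and 329 in sal1 and overlaps the end of NAC13, a transcription factor of the mitochondrial stress response that rose from 14.4 to 45.3 CPM (log2 difference 1.6, edgeR adjusted p = 0.000199). EXO70H1, an exocyst subunit, had 213, 219 and 225 counts against 0, 1 and 0 and ends 38 bases from the end of AT3G55140, which did not pass the test (log2 difference 0.23).

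In the sal1 set the counts did not tell the strands apart, which bears on this class. For genes that lie inside an exon of an expressed gene on the opposite strand, the level per kilobase of the inner gene relative to the outer one had a median of 1.33 in sal1 and 1.31 in its wild type, and 1.27 to 1.43 in both 16 h sets. In the set of cue1 and hda6 at 12 h the same median was 0.0448 to 0.0644. In the sal1 set, reads from the strand of a convergent gene and from that of its neighbour cannot be told apart. The same holds for members that lie within another member on the opposite strand, such as AT1G03325 within AT1G03320.

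Some genes overlapped their neighbours outright. AT1G06750 had 266, 272 and 235 counts in sal1 against 2, 0 and 1 in wild type and overlaps both MUG3, a transposase-derived gene before it, and AT1G06760 on the opposite strand. AT1G07850, a glycosyltransferase family member, had 238, 206 and 226 counts against 0, 1 and 0 and lies between AT1G07840 and AT1G07870 in the same way. Of these neighbours, AT1G06760 was called lower (log2 difference -0.27, edgeR adjusted p = 0.0364) and AT1G07870 higher (1.02, edgeR adjusted p = 0.00121). The call on AT1G06760 is lost without wild-type replicate 1 or 2 or any of the 3 sal1 libraries. AT1G10400, a UDP-glycosyltransferase, had 99, 100 and 119 counts against 0, 1 and 2 and overlaps the end of AT1G10410, which rose from 39.4 to 76.9 CPM (log2 difference 0.91, edgeR adjusted p = 0.0011). AT1G03390, an acyltransferase, reached 29, 29 and 50 counts, and PGP10, an ABC transporter, 63, 46 and 62, both converging on a gene they overlap. These 5 are the first by identifier of 55 genes that overlap a facing neighbour, and their levels ran from 1.72 to 12.4 CPM in sal1.

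The distance to the neighbour and its level both went with the share of silent genes that gained counts. Among silent genes whose tandem neighbour was 0 to 200 bases away, 8 of 395 (2.03%) were in the set where the neighbour was under 1 CPM in wild type, 29 of 142 (20.4%) where it was at 5 to 20 CPM and 58 of 154 (37.7%) at 20 to 100 CPM. With the neighbour over 100 CPM, the share was 10 of 34 (29.4%) at 0 to 200 bases, 22 of 39 (56.4%) at 201 to 500, 9 of 58 (15.5%) at 501 to 1000 and 2 of 42 (4.76%) at 1001 to 2000. For convergent neighbours over 100 CPM it was 30 of 84 (35.7%), 3 of 45 (6.67%), 4 of 35 (11.4%) and 1 of 38 (2.63%) over the same distances. With neighbours over 100 CPM, the share was lower beyond 500 bases than closer by for tandem neighbours, and lower beyond 200 bases for convergent ones. Within the set, the tandem gap had a median of 236 bases and a maximum of 1416, with 183 of 220 within 500 bases, and the convergent gap a median of 56.5 bases, with 128 of 142 within 500 and 45 overlapping.

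**Figure D2:**
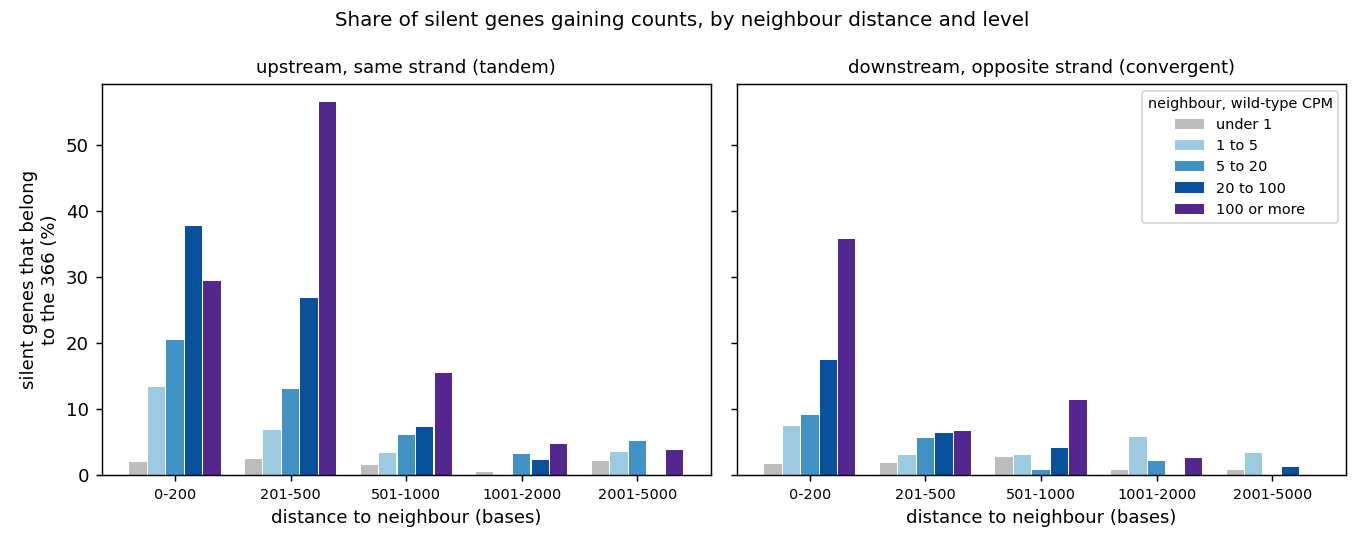
Percentage of silent genes that belong to the 366, by distance to the adjacent gene in bases and by that gene's level in wild type, for tandem neighbours (left) and convergent neighbours (right). The bars reach 56.4% for tandem neighbours over 100 CPM at 201 to 500 bases and 35.7% for convergent neighbours over 100 CPM at 0 to 200 bases, and stay at or below 5.88% from 1001 bases on.

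Most genes of the set were well below their neighbours. Per kilobase in sal1, a gene's level was a median of 15.6% of its tandem neighbour's (quartiles 7.08% and 35.7%) and 11.1% of its convergent neighbour's (quartiles 4.04% and 31.2%). It exceeded the neighbour's in 6 of 220 tandem pairs and 4 of 142 convergent pairs. Across the pairs, which share libraries, the rank correlation of the levels of gene and neighbour was 0.217 for tandem and 0.188 for convergent pairs. Stretches of at least 50 identical bases outside shared exons were found in 7 of 363 pairs, NAXT1 and the gene after it included, and covered over 10% of the gene's exonic bases in 3. Counts of those genes are uncertain.

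**Figure D3:**
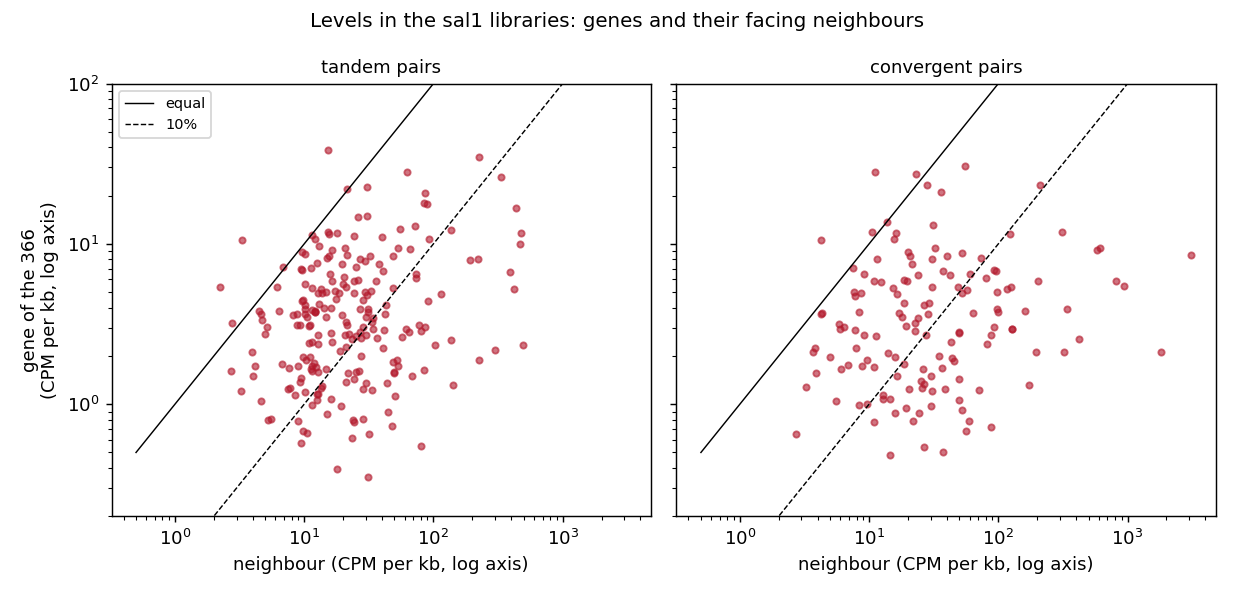
Level of each gene of the set against its facing expressed neighbour in the sal1 libraries, in CPM per kilobase on log axes, for 220 tandem and 142 convergent pairs. Points are gene pairs (means of 3 libraries), the solid line marks equal levels and the dashed line 10% of the neighbour. Only 6 tandem and 4 convergent points lie above the solid line.

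The neighbours themselves did not move in one direction. Of 359 different facing neighbours, 86 were called higher in sal1 (24%) and 77 lower (21.4%) by edgeR's quasi-likelihood test at an adjusted p under 0.05, and 196 neither. Among all 21839 genes tested, 25.0% were called higher and 21.3% lower, so the neighbours were close to the background. Their median log2 difference was -0.02, against 0.01 over all genes. All 366 genes of the set passed the low-count filter, which the rule itself brings about, and were called higher, of which nothing is read.

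Genes outside the set that were weakly expressed in wild type and sat close behind an expressed gene were higher in sal1 as well, which the rule did not use. Of genes at 1 to 5 CPM in wild type with a tandem neighbour 0 to 200 bases away, 219 of 334 (65.6%) were called higher in sal1 and 2 lower, with a median log2 difference of 1.21. The share called higher was 38.5% at 201 to 500 bases, 32.2% at 501 to 1000 and 21.5% at 1001 to 2000, against 405 of 2069 (19.6%) with no facing expressed neighbour. For convergent neighbours the shares were 38.7%, 33%, 27.8% and 21.3% over the same distances. Genes at 5 CPM or more in wild type with a tandem neighbour within 200 bases were called higher in 560 of 1749 cases (32%), against 16.6% with no facing neighbour.

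The other mutants lacked so steep a change with distance among genes at 1 to 5 CPM. With a tandem neighbour within 200 bases and with none facing, the shares called higher were 0.294% and 0.51% in cue1 at 12 h, 16.2% and 22.1% in hda6 at 12 h, and 1.5% and 2.32% in cue1 at 16 h. They were 4.47% and 5.03% in hda6 at 16 h and 20.2% and 15.6% in msh1, where the shares at the 3 larger distances were 16.7%, 15.9% and 9.95%. The difference between mutants in this respect was not tested. Strand was told apart in the set of cue1 and hda6 at 12 h and in no other, so the values from that set are not on the same footing.

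**Figure D4:**
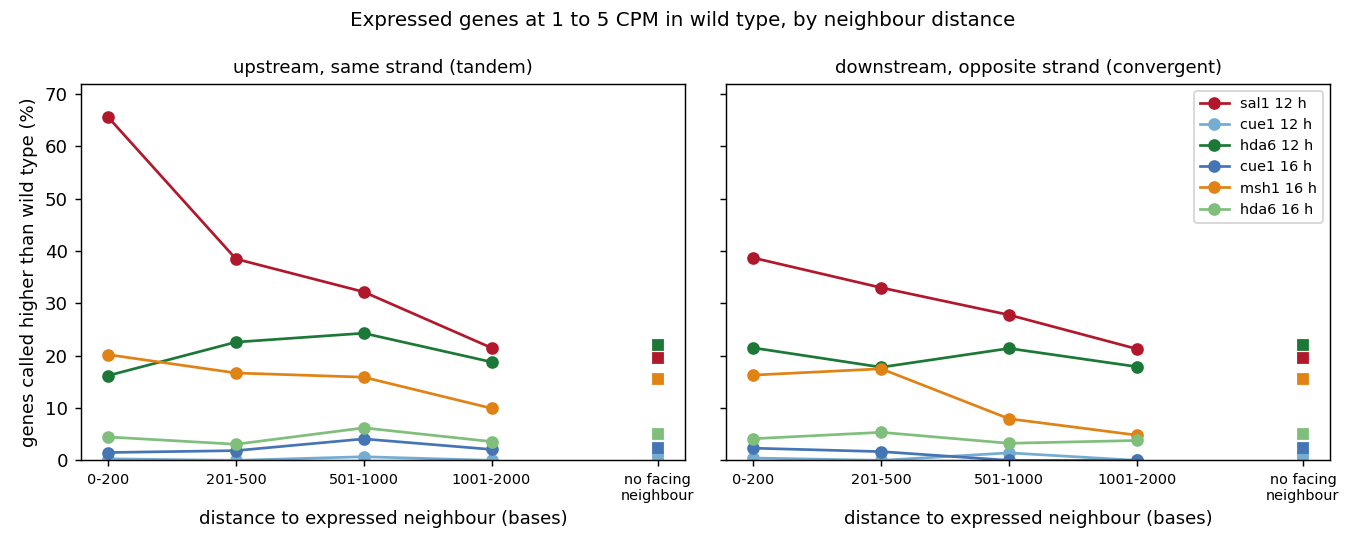
Percentage of genes at 1 to 5 CPM in wild type that were called higher in each mutant, by distance to a facing expressed neighbour in bases, for tandem (left) and convergent (right) neighbours. Lines are the 6 comparisons and squares the genes with no facing expressed neighbour. The sal1 line falls from 65.6% to 21.5% for tandem neighbours, and the other lines stay at or below 24.3%.

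The totals of reads that were assigned to no single gene also differed. Reads set aside because they overlapped more than 1 gene made up 0.445 ± 0.0166% of entries in sal1 and 0.2498 ± 0.0122% in its wild type (SD, n = 3 each; exact two-sided permutation p = 0.1, the smallest that 3 against 3 allows). In the libraries of the other groups this share was 0.207% to 0.286%. Reads assigned to no gene made up 49.24 ± 0.104% in sal1 and 48.57 ± 0.0916% in wild type (exact two-sided permutation p = 0.1). Where strand was not told apart, this share can hold reads that lie inside a gene on its opposite strand. It is therefore not a measure of reads between genes. The sal1 libraries did not overlap their wild type in either total. Reads assigned to no gene ran from 2.58% to 5.78% in the set of cue1 and hda6 at 12 h, where strand was told apart. In the 16 h sets they ran from 48% to 49.6%, and the sal1 libraries (49.2% to 49.4%) lay inside that range. The wild type of hda6 at 16 h alone spanned 49.1% to 49.5%. Whether single reads cross from a neighbour into a gene cannot be seen in counts per gene and was not tested.

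**Figure D5:**
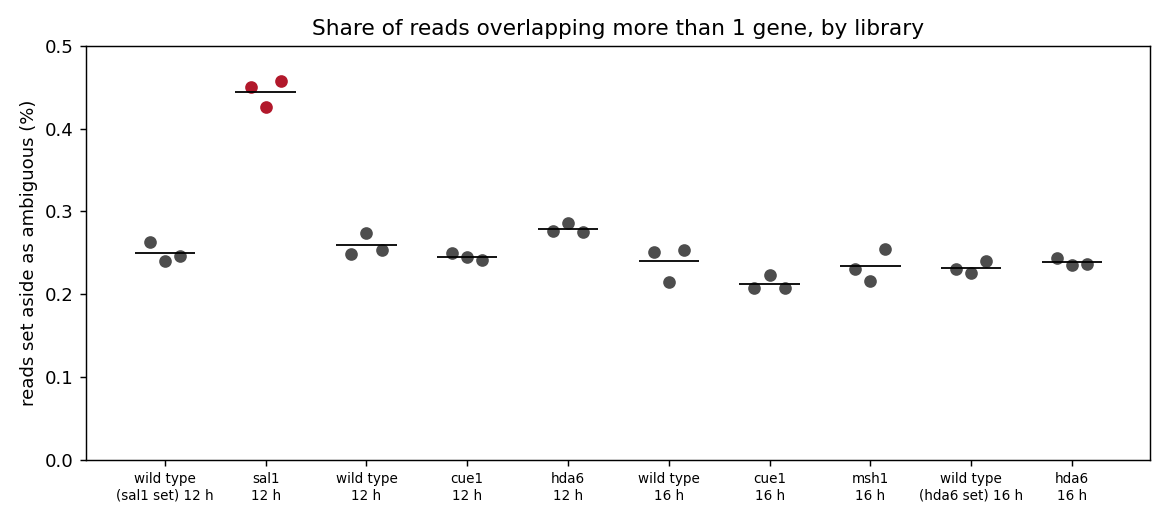
Percentage of reads that overlapped more than 1 gene in each of the 30 libraries. Points are libraries and lines group means, and the 3 sal1 libraries, with a mean of 0.445%, lie above all others, which run from 0.207% to 0.286%.

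Not every gene of the set had an expressed gene pointing at it. When silent genes in between were passed over and the limit set at 5000 bases, 346 of the 366 (94.5%) had an expressed gene pointing at them, against 4187 of 9559 other silent genes (43.8%), which left 20. Among the 20, AT1G06163, a non-coding RNA, had the highest level with 146, 274 and 292 counts in sal1 against 1, 2 and 0 in wild type. AT5G37050, annotated as a sorting nexin, had 125, 118 and 112 counts against 2, 1 and 2. EXL6, of the EXORDIUM-like family, had 124, 105 and 105 counts and none in wild type, at least 92.5-fold higher against the same floor of 3 counts. AT4G05285 and AT4G08185, non-coding RNAs that overlap an expressed gene, had 109, 80 and 101 counts and 85, 92 and 97 counts. GSTU2, a glutathione transferase, had 47, 107 and 47 counts against 0, 2 and 0, and it belongs to the same 20. AT3G02975 and AT2G29485, also among the 20, lie within EXL6 and GSTU2 on the opposite strand. Strand was not told apart in this set, so the counts of each such pair cannot be read as those of separate genes.

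The gene with the highest level, AT3G45660, of the major facilitator family, also missed the measure. It had 2, 1 and 2 counts in wild type and 1168, 1172 and 1318 in sal1, and lies 285 bases after NAXT1, a nitrate efflux transporter of the same family, with no gene between them. NAXT1 was just under 5 CPM in wild type (4.73, 4.47 and 5.36) and at 109, 106 and 136 CPM in sal1, a log2 difference of 4.53 (edgeR adjusted p = 1.22e-06). Stretches of 50 or more identical bases cover 11.8% of the exonic bases of AT3G45660. With the neighbour's level taken from the sal1 libraries instead, 330 of the 366 genes (90.2%) faced an expressed neighbour, against 24.8% of the other silent genes.

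Silent genes with counts in hda6 had another placement. Of 56 genes with at most 5 counts over each of the hda6 wild types and at least 20 in each of the 6 hda6 libraries, 6 (10.7%) faced an expressed neighbour, against 84.4% of the 366. Strand was told apart in the hda6 libraries at 12 h and not in the sal1 libraries, so the shares are not on the same footing for convergent neighbours. With tandem neighbours alone, the shares were 7.14% of the 56 and 60.1% of the 366. Those 2 sets cannot overlap by construction.

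In the other mutants few of the 366 genes had enough counts to be tested. In msh1 at 16 h, 7 of 9 tested were called higher, where 17.4% of all tested genes were. A gene passed the filter mostly through the group where it was high, so this count is no support. AT5G54550 had 26, 49 and 79 counts in msh1 and 0, 0 and 1 in wild type (log2 difference 6.77, SE 0.86, edgeR adjusted p = 0.000368). AT2G42065, a DnaJ domain protein, had 30, 19 and 55 counts in msh1 and none in wild type, and AT1G27710, a glycine-rich protein, 75, 54 and 54 against 2, 16 and 1. These genes were named because they were called, so the lack of overlap between msh1 and wild type in each is no support either. The other 4 called were AT2G03130, AT1G20150, AT3G08245 and AT1G02190, with log2 differences of 5.81, 3.73, 2.65 and 1.73, and the call on AT1G02190 is lost without wild-type replicate 1 (edgeR adjusted p = 0.0518).

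In hda6 at 12 h, 3 of 6 tested genes were called higher (background 22.5%), all below 20 counts by the rule, and named here after their values were seen. A gene passed the filter mostly through a group where it was high, so the counts of calls in this paragraph are no support. GSTU2 had 14, 13 and 14 counts against 3, 4 and 3 in wild type, RR18 14, 12 and 13 against 3, 1 and 0, and UKL5, a uridine kinase-like protein, 18, 10 and 12 against 5, 1 and 2. The call on UKL5 is lost without wild-type replicate 3 (edgeR adjusted p = 0.052). In cue1 at 16 h, 1 of 9 was called (background 3.34%), the subtilisin-like protease AT1G20150, with 32, 10 and 21 counts against 1, 0 and 4, and that call is lost without wild-type replicate 1 or 2 or cue1 replicate 1 or 3 (edgeR adjusted p 0.0648 to 0.0998). None of 6 was called in cue1 at 12 h (background 1.3%) and none of 2 in hda6 at 16 h (background 4.49%), by edgeR, with 0 and 1 at an unadjusted p under 0.05.

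A list of genes of the SAL1 and PAP pathway and of 3′ end formation and termination was, as a whole, called in both directions about as often as other genes. The SAL1 transcript itself was higher in the libraries labelled sal1, at 300.3, 209.8 and 243 CPM against 84.1, 73 and 71.7 in wild type (log2 difference 1.65, SE 0.14, edgeR adjusted p = 0.000112), and without the allele its level does not check the label. Of 31 genes in the list, 7 were called higher and 6 lower, against 25.0% higher and 21.3% lower among all tested genes, so the list as a whole was close to the background. Its median log2 difference was -0.02, against 0.01 for all genes. The higher ones were SAL1, its paralog SAL3 (2.08), the PAP phosphatase AHL (0.72), the RNA-binding regulators of 3′ end choice FPA (0.70) and FCA (0.65), the polyadenylation factor subunit FIPS5 (0.31) and BDR2 (0.75), of a family of termination regulators. SAL2 (log2 difference 0.1) and SAL4 (0.61) were not called, so the SAL genes and AHL had calls in the higher direction only. The lower ones were the exoribonuclease XRN2 (log2 difference -0.58, edgeR adjusted p = 0.00161), the cleavage factor subunits CPSF73-I (-0.29), CPSF100 (-0.37) and CLPS3 (-0.30), the poly(A) polymerase PAPS1 (-0.31) and BDR3 (-0.40). XRN3 was at 88.9 ± 5.47 CPM in sal1 and 91.6 ± 4.93 in wild type, and XRN4 at 77.9 ± 1.06 and 73.5 ± 2.73 (SD, n = 3 each), and neither passed the test. The number called lower falls to 2 without wild-type replicate 3, and to 3 without wild-type replicate 2 or sal1 replicate 3. The calls on CPSF73-I, CLPS3, PAPS1, BDR3 and FIPS5 are each lost when 1 of at least 2 libraries is left out.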

How the data were processed

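Leaf RNA was sequenced as paired reads of 150 bases. Per the submitters' processing notes, the authors used STAR 2.7.10a with TAIR10 after trimming by cutadapt 2.8 and Trim Galore 0.6.6. For the counting tool and its strand setting, no source used here gives a name. The deposited values are raw counts of reads per gene, for 34262 identifiers in each of 30 libraries. Totals of reads assigned to no gene (2.58% to 49.6% of entries) or overlapping more than 1 gene were kept out of library sizes and of the tests on genes.

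Gene positions, symbols and sequences came from RefSeq TAIR10.1, in which all 32548 nuclear identifiers were found. The files hold no coordinates and the authors' gene models may differ. CPM are gene counts scaled to a total of 1000000. Each mutant was compared with the wild type of its set with R 4.3.3 and edgeR 4.0.16 (genes passing filterByExpr with a minimum count of 10, TMM, quasi-likelihood test, Benjamini-Hochberg adjustment over all tested genes, calls at 0.05), and DESeq2 1.42.0 was an alternative. Tests over single totals were exact permutation tests. The fits were tested on simulated counts. P-values measure the spread between the full-sib samples. Floors cover counting error only.

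The members and gene lists were chosen with earlier results of these data known. Members named are the 12 highest in sal1, the 10 highest with a gene symbol, those called in another mutant, those at the edge of the rule and the 5 highest with no expressed gene pointing at them within 5000 bases. Of 55 members that tie at a distance of 0 from a facing neighbour, the 5 first by identifier are named.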

Additional observations from a re-analysis of the deposited data

How the results depend on the processing

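The rule gave 161 genes with a wild-type limit of 0, 555 with a sal1 minimum of 10 and 168 with one of 50, and 380 to 439 when 1 library was left out. Genes facing an expressed neighbour numbered 247 to 346 under other distances and levels, and 220 with tandem neighbours alone. Under DESeq2, calls in cue1 at 12 h went from 381 to 1164 in total, and called members from 3 to 13 in hda6 at 12 h, from 1 to 3 in cue1 at 16 h and from 0 to 4 in hda6 at 16 h. With no low-count filter, called members numbered 21 in hda6 at 12 h, 11 in msh1 and 11 in hda6 at 16 h. The cause was not tested, though these settings test more members at low counts. The alternatives on neighbours passed over, neighbour level in sal1, gene kind, own level (560 genes at 5 CPM or more close behind a tandem neighbour called higher, in place of 219 at 1 to 5 CPM) and reads in more than 1 gene were chosen after seeing the data.

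Replicate numbers do not pair the samples (correlation of deviations from the group means -0.346 to 0.153, not over 0.1 in every pair of any comparison). With the replicate number as a block, all calls were 10395 in sal1 (10103 without), 167 in cue1 at 12 h and 2741 in hda6 at 16 h (1642 without), and no member was called in cue1 at 16 h. Leaving out 1 library gave 8088 to 10220 calls in sal1, 32 to 304 in cue1 at 12 h, 563 to 1687 in cue1 at 16 h, 929 to 2124 in hda6 at 16 h, 3 to 5 called members in hda6 at 12 h, 0 to 3 in cue1 at 16 h, 0 to 3 in hda6 at 16 h and 2 to 5 lower genes in the termination list. Directions were followed only for the termination list, the neighbours of named members and the members tested in other mutants. None reversed where the gene was called in the main or the alternative fit. A lowest count of 20 per library limits how well single members are measured.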
